A study of Canis lupus familiaris with 12 samples.

Results

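The response of HU-HSA-3 cells to 48 h without glucose was read from 6 of the 12 mRNA-seq libraries of the series, all of them from that cell line. HU-HSA-3 is a canine hemangiosarcoma line, established by the study from the splenic tumor of a single dog, so it stands for 1 tumor. The 3 libraries of the control group came from cells in DMEM with 25 mM glucose, and the 3 libraries of the starved group came from cells in the same type of medium with 0 mM glucose for 48 h. Fetal bovine serum and antibiotics were present in both groups, the labels name no genetic change in either, and the study's methods describe gelatin-coated dishes for this line. The other 6 libraries came from HU-HSA-2, a line from another dog, under the same 2 conditions, and they enter only a test of the difference between the lines. The study's methods say that the cultures were made in triplicate, and the labels number the libraries 1 to 3 within a group. P-values measure the spread between these libraries of 1 line.

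Cells that line blood vessels give rise to hemangiosarcoma, a cancer known in dogs for its spread and bleeding. Cells short of nutrients can start the integrated stress response, in which general protein synthesis is lowered while translation of the transcription factor ATF4 rises. ATF4 then acts on genes for amino acid synthesis and import, for redox defense, and, through DDIT3, for cell death. Glucose also feeds one-carbon and serine metabolism, which links its loss to several of these enzymes.

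Without glucose, all 7 stress-response genes that could be named rose in HU-HSA-3. CHAC1 rose 21.2-fold, SLC7A11 9.78-fold, DDIT3 7.51-fold, SESN2 6.28-fold and ATF4 2.18-fold, while ASNS and MTHFD2 rose 1.88-fold and 1.89-fold. Across the transcriptome, 400 of 11089 genes tested rose, or 3.61%, and 226 fell. One starved library, 0 mM replicate 1, stood apart from the others, and without it 1095 of 11191 genes rose, or 9.78%, and 932 fell. The 7 stress-response genes passed the test with and without that library, while the number of genes called without it depended on the test used. RNA was taken from whole cultures, so a change in the share of cells that express a gene and a change in RNA per cell cannot be told apart.

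The count table was deposited for 30951 Ensembl gene identifiers, of which 15779 had a count in at least 1 of the 6 libraries. Library totals ran from 10406166 to 12715369 expected counts, and between 10989 and 11185 genes per library had at least 10 counts. The 3 starved and the 3 control libraries overlapped in depth. Names for 17 genes came from the primer list of the study, because the tables hold identifiers alone.

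0 mM replicate 1 departed from the other starved libraries across the transcriptome. The chi-square statistic of its counts over the degrees of freedom was 18.3 against replicate 2 and 21.2 against replicate 3. The same statistic was 2.996 between replicates 2 and 3, and 2.66 to 4.44 among the control libraries. On the first principal component, which held 47.5% of the variance, the starved libraries lay at 28.5, 10.9 and 8.54 for replicates 1, 2 and 3, and the control libraries between -18.5 and -14.4. The second component, with 23.6%, placed 0 mM replicate 1 at 17.2, replicates 2 and 3 at -14.1 and -16.7, and the controls between -0.999 and 8.58. Thus the first component separated the glucose groups, and the second separated replicate 1 from the other starved libraries.

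The departure of 0 mM replicate 1 moved with gene length. Levels were expressed as CPM, the counts scaled to a common library size after TMM normalization, and gene length was taken from the ratio of count to TPM and divided by that of the median gene. The log2 CPM of replicate 1 minus the mean of the other 2 starved libraries correlated with log2 relative gene length at r = -0.476 across 11089 genes, which share the library and are not independent. Replicate 2 minus replicate 3 gave r = -0.05 over the same genes. With genes split by length into 4 equal groups, in the shortest group replicate 1 lay at a median of 0.22 log2 units above the other 2, and in the longest group at 0.20 log2 units below. In all, 171 genes differed by more than 1 log2 unit, 80 upward and 91 downward. The cause of this departure was not tested.

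**Figure D1:**
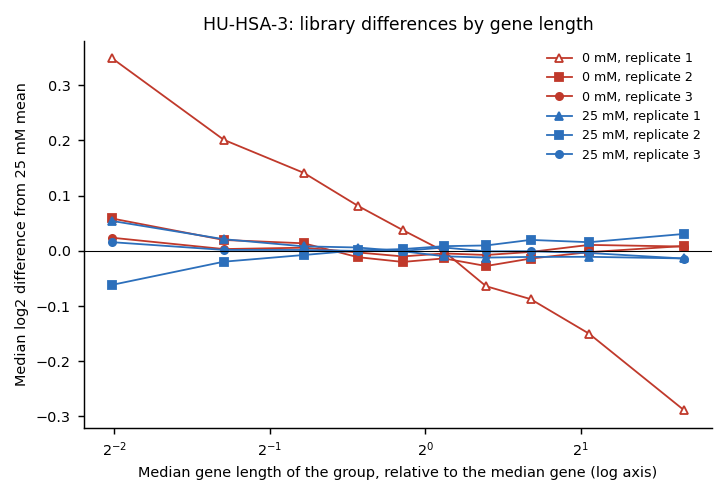
Median log2 CPM difference from the mean of the 3 control libraries in HU-HSA-3 (vertical axis) for genes in 10 groups of relative length (horizontal axis, log scale, 1 is the median gene), with 1 line per library. 0 mM replicate 1 falls from 0.35 in the shortest group to -0.29 in the longest, while the other 5 libraries stay near 0.

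The spread in the fit followed this library. The common biological coefficient of variation was 9.22% with all 6 libraries and 4.64% without 0 mM replicate 1, and leaving out any other library gave 9.23% to 10.5%. With 6 libraries, the quasi-likelihood test of edgeR, with p-values adjusted by Benjamini and Hochberg's method, called 626 genes, 5.65% of the 11089 tested, with 3.61% higher and 2.04% lower. Without 0 mM replicate 1 it called 2027 genes, 18.1% of 11191 tested, with 9.78% higher and 8.33% lower. That fit rests on starved replicates 2 and 3. The library was left out because it stood apart, which lowers the spread, so p-values without it may be too small. DESeq2's Wald test on the same libraries called 1192 genes, 690 higher and 502 lower. Of the 626 genes, 625 were also called without that library, all in the same direction. A further 1402 genes were called only without it. Unadjusted p-values under 0.05 were found for 2452 genes with the library and 3471 without it. Leaving out any other library gave between 231 and 431 called genes.

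The balance of higher and lower calls differed between fits. With limma on log2(TPM + 1), which changes the unit, the test and the filter together (10937 genes tested), 198 genes were higher and 186 lower, against 400 and 226 in the edgeR fit. On counts with limma-voom and quality weights, 1054 were higher and 868 lower. When the trend on gene length was removed from each library, the 6 libraries gave 1039 called genes, 639 higher and 400 lower. Without 0 mM replicate 1 the balance turned between fits. There limma on log2(TPM + 1) gave 410 higher and 481 lower, against 1095 and 932 in edgeR.

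**Figure D2:**
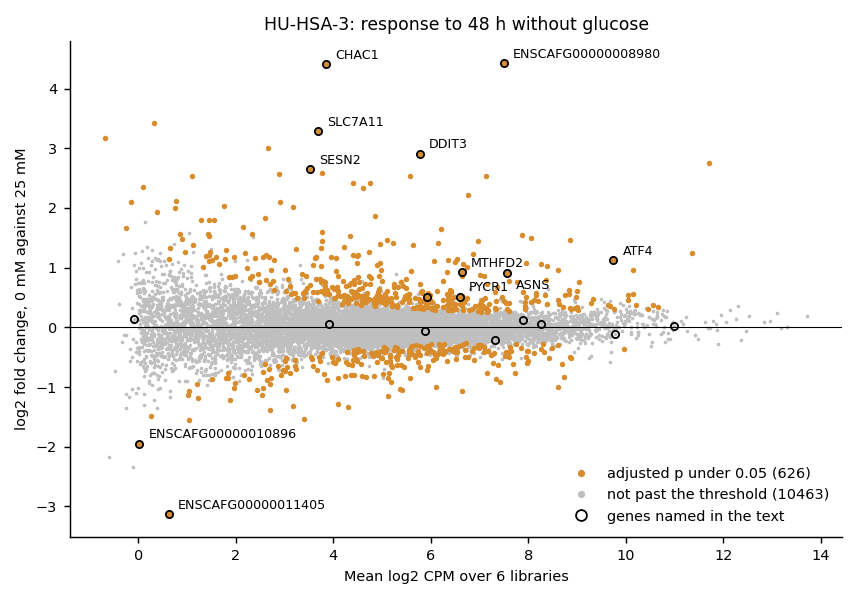
Log2 fold change of 0 mM against 25 mM glucose (vertical axis) over mean log2 CPM of the 6 HU-HSA-3 libraries (horizontal axis), 1 point per gene tested. The 626 genes past the threshold are orange, and CHAC1 and ENSCAFG00000008980 lie highest, at 4.41 and 4.42.

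Most changes were modest. The 400 genes that rose did so by a median of 0.58 on the log2 scale, or 1.50-fold, with 100 above 1 log2 unit and 25 above 2. Among the 226 genes that fell the median size was 0.50 log2 units, or 1.42-fold, with 22 beyond 1 log2 unit and 1 beyond 2. The genes called without 0 mM replicate 1 were smaller in effect, with a median size of 0.35 log2 units for the 1095 that rose and 0.29 for the 932 that fell. These sizes describe genes selected by the same contrast.

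No gene went from silent to expressed by a simple count rule. There were 0 genes with 0 counts in all 3 control libraries and at least 10 counts in each starved library, and 0 genes with the opposite pattern. Of the 400 genes that rose, 22 had a mean of under 1 TPM at 25 mM glucose.

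The share of genes called was larger among genes of higher expression. In 4 equal groups of genes by mean TPM, from lowest to highest, 3.86%, 5.16%, 6.75% and 6.82% of genes were called with 6 libraries. Without 0 mM replicate 1 the shares were 8.48%, 16.4%, 21.7% and 26.3%. By gene length, 5.09% of the shortest of 4 groups and 5.70% of the longest were called with 6 libraries. Lower calls made up 1.19% of the shortest group and 2.81% of the longest, and higher calls ran the other way, with 3.90% and 2.89%. When 0 mM replicate 1 was left out, lower calls were 5.88% and 9.99% and higher calls 8.76% and 12.5%, so that both were more frequent in the longest group. With the length trend removed from all 6 libraries, lower calls were 2.89% and 3.97% and higher calls 4.90% and 6.64%.

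The genes that rose took a larger part of the transcript pool. TPM, which is scaled for gene length and library total, summed over these 400 genes to 54588, 56719 and 56084 in starved replicates 1 to 3, and to 36153, 37279 and 36399 in the controls. The 226 genes that fell summed to 7609, 8550 and 9068 TPM without glucose and to 12482, 12518 and 12586 TPM with it. In both sums the groups were apart, as the choice of the genes fixes. The 7 stress-response genes made up 5.52% of the summed TPM gain of the 400 genes, and ATF4 alone 3.05%.

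ATF4 (ENSCAFG00000001324), the transcription factor at the center of the integrated stress response, was at 1374, 1243 and 1189 CPM in starved replicates 1 to 3. In the control replicates it was at 601, 553 and 589 CPM. The groups did not overlap, and replicate 1 was the highest of the starved libraries. Its log2 fold change was 1.13 ± 0.08 (SE, n = 3 per group), with an adjusted p of 4.08e-05 by the quasi-likelihood test of edgeR (Benjamini-Hochberg adjustment). Without 0 mM replicate 1 it was 1.07 ± 0.05 (SE), with an adjusted p of 5.73e-12 by the same test.

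DDIT3 (ENSCAFG00000030112), which encodes the stress transcription factor CHOP, was at 158, 156 and 135 CPM without glucose. With glucose it was at 20.7, 18.3 and 20.8 CPM. Every starved library lay far above every control, with replicate 3 the lowest of the starved. DDIT3 rose by a log2 fold change of 2.91 ± 0.10 (SE, n = 3 per group; adjusted p = 2.77e-07, edgeR's quasi-likelihood test). Leaving out 0 mM replicate 1 gave 2.87 (adjusted p = 2.65e-15 in the same test). By TPM, which allows genes to be compared with each other, DDIT3 stood at 38.4 ± 2.20 with glucose, below MTHFD2 and ASNS, and at 267 ± 17.6 without it, above both (SD, n = 3).

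CHAC1 (ENSCAFG00000009414), an enzyme that degrades glutathione, was at 66.5, 62.6 and 65.6 CPM in the starved replicates. Its control values were 3.30, 3.31 and 2.52 CPM. The starved libraries were close to each other, replicate 1 included, and none approached the controls. CHAC1 rose by a log2 fold change of 4.41 ± 0.12 (SE, n = 3 per group; adjusted p = 6.22e-08, edgeR's quasi-likelihood test), the second largest rise among the 11089 genes. Without 0 mM replicate 1 it was 4.39 (adjusted p = 2.18e-15) and ranked 4 among 11191 genes.

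SLC7A11 (ENSCAFG00000003749), the cystine importer that supplies cysteine for glutathione, was at 26.2, 51.5 and 42.7 CPM in starved replicates 1, 2 and 3. The controls were at 4.06, 3.95 and 4.32 CPM. Replicate 1 reached only 0.556 of the mean of the other 2 starved libraries, yet it was still well above the controls. The log2 fold change was 3.29 ± 0.25 (SE, n = 3 per group; adjusted p = 6.02e-05, edgeR's quasi-likelihood test) and ranked 4 among all rises. It was 3.52 ± 0.12 without 0 mM replicate 1 (adjusted p = 1.59e-13) and ranked 6.

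SESN2 (ENSCAFG00000011842), a stress-induced sestrin that restrains growth signaling through mTORC1, showed the same order of libraries. Its starved values were 22.9, 32.8 and 30.0 CPM for replicates 1, 2 and 3. Its control values were 4.56, 4.05 and 5.04 CPM. Replicate 1 was at 0.728 of the mean of the other 2 starved libraries, and the groups did not overlap. The log2 fold change was 2.65 ± 0.17 (SE, n = 3 per group; adjusted p = 2.00e-05, edgeR's quasi-likelihood test), rank 9 among all rises, and 2.78 without 0 mM replicate 1, rank 11. For the other 5 stress-response genes replicate 1 was at 1.04 to 1.13 of the mean of replicates 2 and 3. SLC7A11 and SESN2 have relative lengths of 0.829 and 1.04, close to the median gene, and their log2 fold changes were 3.29 and 2.66 with the length trend removed.

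ASNS (ENSCAFG00000002222), which makes asparagine from aspartate and glutamine, was at 276, 256 and 244 CPM without glucose. The controls were at 137, 138 and 137 CPM and hardly differed from each other. Its log2 fold change of 0.91 ± 0.07 (SE, n = 3 per group; adjusted p = 5.46e-05, edgeR's quasi-likelihood test) became 0.87 without 0 mM replicate 1. ASNS ranked 154 among all rises, and 186 without that library, so its change was small beside those of CHAC1 or DDIT3.

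MTHFD2 (ENSCAFG00000008716), a mitochondrial enzyme of one-carbon metabolism, was at 140, 134 and 134 CPM in the starved replicates. With glucose it was at 73.8, 69.5 and 72.3 CPM. The groups were well apart and the starved libraries nearly equal. MTHFD2 changed by 0.92 ± 0.07 log2 units (SE, n = 3 per group; adjusted p = 4.22e-05, edgeR's quasi-likelihood test), and 0.90 without 0 mM replicate 1.

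Taking the stress-response genes as a group, 7 of 7 rose, beside 3.61% of all genes tested, with a median log2 fold change of 2.65 beside 0.00016 over all genes tested. The group comes from the primer list of the study, which measured these genes in the same cells, so it is not independent evidence of a direction. Their summed TPM was 1789, 1861 and 1824 in the starved replicates and 781, 737 and 776 in the controls. This sum differed little among starved libraries, although SLC7A11 and SESN2 were lower in replicate 1, and ATF4 made up most of it.

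Per gene length, the order of the 7 genes changed between the conditions. With glucose the mean TPM values were 561 for ATF4, 91.3 for ASNS, 63.3 for MTHFD2, 38.4 for DDIT3, 4.40 for CHAC1, 3.41 for SLC7A11 and 3.05 for SESN2. The ranges of SLC7A11 and SESN2 overlapped, at 3.36 to 3.49 and 2.72 to 3.39 TPM, and the other neighbors were apart. Without glucose the means were 1146 for ATF4, 267 for DDIT3, 162 for ASNS, 113 for MTHFD2, 87.1 for CHAC1, 32.4 for SLC7A11 and 18.3 for SESN2. Again only SLC7A11, at 19.3 to 41.8 TPM, and SESN2, at 13.4 to 21.3 TPM, overlapped. CHAC1 moved from above 41.8% to above 88.8% of the genes with a TPM above 0.

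**Figure D3:**
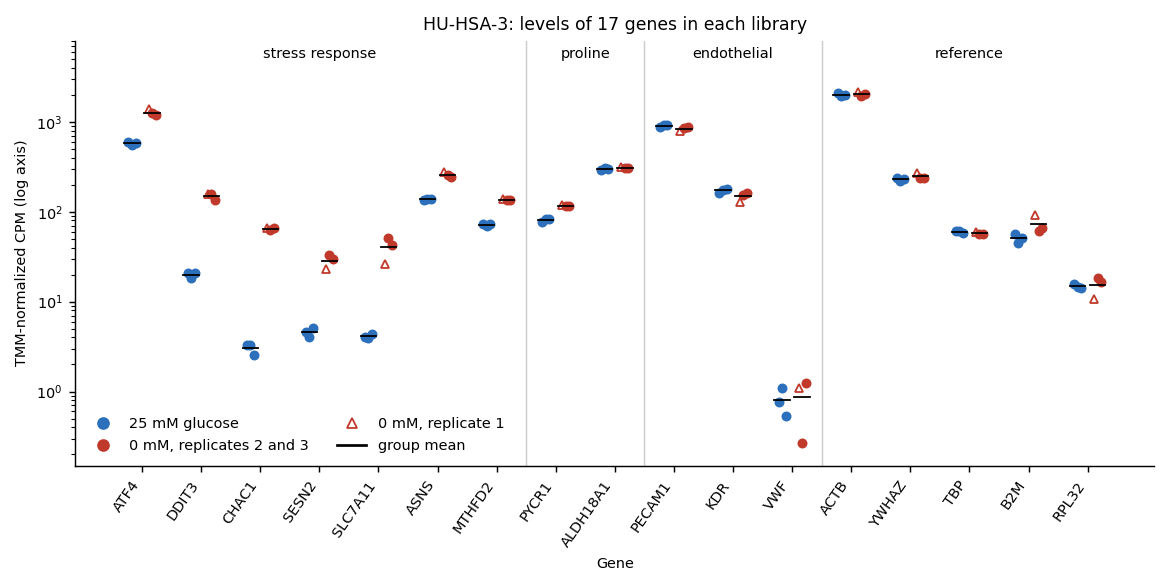
TMM-normalized CPM (vertical axis, log scale) of the 17 named genes in each HU-HSA-3 library, with blue points for 25 mM glucose, red points for 0 mM, open triangles for 0 mM replicate 1 and black lines for group means. The 7 stress-response genes, PYCR1 and B2M are higher without glucose with no overlap of the groups, and PECAM1 is lower by a narrow margin. Replicate 1 lies low for SLC7A11 and SESN2 and high for B2M.

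Of the genes for proline synthesis, PYCR1 rose and ALDH18A1 did not pass the test. The study reports by RT-qPCR, a different measure, that genes for proline synthesis were not upregulated. PYCR1 (ENSCAFG00000005906), which carries out the last step of proline synthesis, was at 118, 115 and 115 CPM without glucose and 77.4, 82.7 and 83.3 CPM with it. Its groups were apart, and its log2 fold change was 0.52 ± 0.07 (SE, n = 3 per group; adjusted p = 0.00189, edgeR's quasi-likelihood test). Without 0 mM replicate 1 it was 0.51 (adjusted p = 2.15e-06).

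ALDH18A1 (ENSCAFG00000008339), which carries out the first steps of proline synthesis from glutamate, lay between 310 and 312 CPM in the starved libraries. Its controls lay between 294 and 310 CPM, and the groups overlapped. The log2 fold change was 0.05, with a 95% interval of -0.09 to 0.19 (adjusted p = 0.671, edgeR's quasi-likelihood test, n = 3 per group). The interval, like the others given here, is for this gene alone and not adjusted for the number of genes.

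The endothelial markers were read as a check of the cell type, and 3 of the 10 markers listed could be matched to an identifier. PECAM1 (ENSCAFG00000011740), the adhesion molecule CD31, was at 786, 857 and 879 CPM without glucose and 880, 928 and 920 CPM with it. The groups were apart by the narrowest margin, and the log2 fold change of -0.11 had a 95% interval of -0.27 to 0.05 (adjusted p = 0.380, edgeR's quasi-likelihood test, n = 3 per group). KDR (ENSCAFG00000002079), a receptor for vascular endothelial growth factor, was at 130, 155 and 162 CPM without glucose and 160, 177 and 181 CPM with it. Its groups overlapped through replicate 3 of the starved libraries, and its log2 fold change was -0.21 (95% interval -0.42 to -0.003, adjusted p of 0.221 in the same test). In both genes replicate 1 was the lowest library, and without it the log2 fold changes were -0.07 and -0.12, neither of which passed the test. KDR has a relative length of 2.74, and removing the length trend gave -0.14.

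VWF (ENSCAFG00000015228), the clotting protein von Willebrand factor, was close to the limit of detection. It had 3 to 16 counts per library. Its log2 fold change of 0.14 had a 95% interval of -1.03 to 1.32, too wide to tell a rise from a fall. PECAM1 and KDR were therefore detected in every library and VWF only in traces. Markers of fibroblasts and of blood cells could not be matched to identifiers and were not analysed here.

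None of 5 genes that the study used as references for RT-qPCR passed edgeR's test with 6 libraries, although B2M had an unadjusted p under 0.05 and passed with DESeq2. Their log2 fold changes were 0.05 for RPL32, -0.06 for TBP, 0.12 for YWHAZ, 0.03 for ACTB and 0.51 for B2M (adjusted p from 0.0846 for B2M to 0.888 for RPL32, edgeR's quasi-likelihood test, n = 3 per group). B2M (ENSCAFG00000013633), the light chain of class I histocompatibility molecules, was at 91.0, 60.9 and 65.2 CPM without glucose and 56.9, 44.8 and 50.8 CPM with it. The groups did not overlap, and replicate 1 was the highest. Without 0 mM replicate 1, B2M had a log2 fold change of 0.31 and passed the test (adjusted p = 0.0124). B2M is short, with a relative length of 0.246, and its log2 fold change was 0.38 with the length trend removed (adjusted p = 0.0216).

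The signs of RPL32 and ACTB were not stable, since both were negative on the TPM scale. The identifier paired with RPL32 (ENSCAFG00000004821) was at only 2.37 to 4.83 TPM, low for a gene of a ribosomal protein, while ACTB had a mean of 1332 TPM without glucose and 1384 TPM with it.

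By position of the libraries, 10 of the 17 named genes had no overlap between the groups, 9 higher and 1 lower without glucose. Over all genes tested this held for 30.0%, with 15.3% higher and 14.7% lower. The test called 8 of the 17 genes with 6 libraries, beside 5.65% of all genes tested, and 9 without 0 mM replicate 1, beside 18.1%, the addition being B2M.

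Beyond the named genes, the largest changes are given by identifier alone. ENSCAFG00000008980 rose most of all genes tested with 6 libraries and ranked 3 without 0 mM replicate 1, from 37.4, 42.2 and 37.6 CPM with glucose to 850, 851 and 812 CPM without it. All starved libraries were alike in this gene, with a log2 fold change of 4.42 ± 0.08 (SE, n = 3 per group; adjusted p = 3.82e-09, edgeR's quasi-likelihood test) and the same value without 0 mM replicate 1. It added 673 TPM, more than ATF4, which added 585 TPM. ENSCAFG00000011405 fell most, from 4.90, 4.87 and 3.51 CPM to 0.101, 0.267 and 1.02 CPM in starved replicates 1 to 3. Its counts ran from 1 to 58 per library, and its log2 fold change was -3.13 ± 0.46 (SE; adjusted p = 0.00358 in the same test), with -2.71 when 0 mM replicate 1 was left out and -4.48 when 0 mM replicate 3 was. ENSCAFG00000010896 had 3 to 31 counts per library and a log2 fold change of -1.95 (adjusted p = 0.0492, edgeR's quasi-likelihood test). Without 0 mM replicate 1 its log2 fold change was -1.78 (adjusted p = 0.0242, same test). Its adjusted p rose above 0.05 when 0 mM replicate 2 or any of the 3 controls was left out.

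How far each starved library had moved along the response was described over the genes called without it. For 0 mM replicate 1 this used 2021 genes called from the other 5 libraries that were also tested with all 6. The slope through 0 of its log2 difference from the control mean on that of the other 2 starved libraries was 0.897. Slopes for replicates 2 and 3 were 0.9998 over 319 genes and 0.877 over 429 genes. The control mean enters both axes, which alone gives a positive slope and a shared direction for more genes than not, and the gene sets differ. The slopes and shares are therefore descriptions with no test.

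The direction was also compared within these genes. 0 mM replicate 1 moved in the same direction as the other 2 for 80.3% of its 2021 genes. Of these, 963 lay at or past the nearer of the other starved libraries, 517 lay between the groups, 262 lay within the range of the controls and 279 lay past the controls on the opposite side. Replicates 2 and 3 moved in the same direction in 100% of their 319 and 429 genes, which are smaller sets from fits with a larger spread. Over all 11089 genes the shares in the same direction were 65.3%, 72.2% and 70.6% for replicates 1, 2 and 3, with slopes of 0.831, 0.718 and 0.648. Among genes called without it and with a log2 fold change beyond 1, the slope of replicate 1 was 0.948 over 132 genes, with 98.5% in the same direction. The same slopes were 1.02 over 98 genes for replicate 2 and 0.906 over 122 genes for replicate 3.

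**Figure D4:**
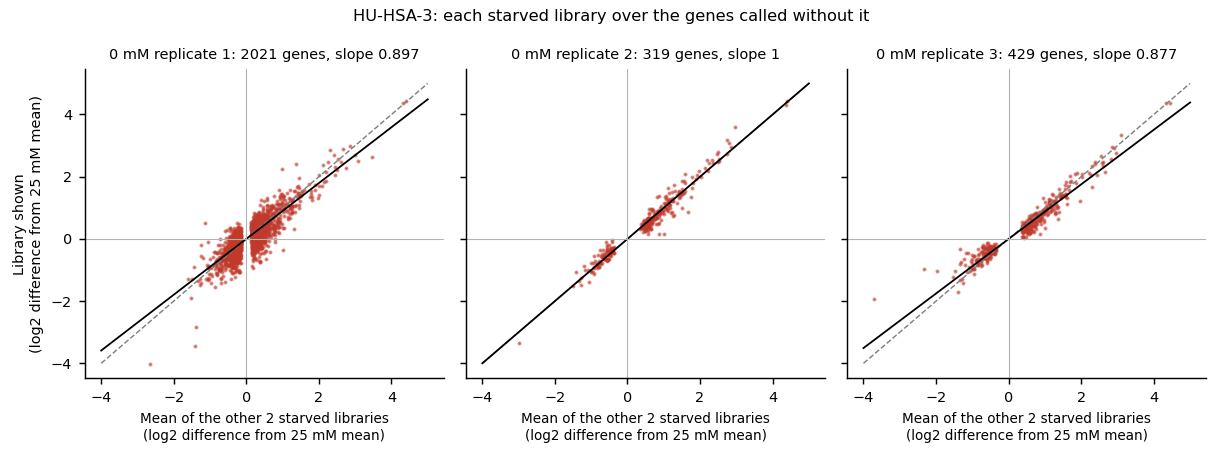
Log2 difference from the control mean of each starved HU-HSA-3 library (vertical axis) against that of the other 2 starved libraries (horizontal axis), over the genes called without the library shown. The solid line is the slope through 0 (0.897, 0.9998 and 0.877), the dashed line is equality, and the points scatter most for 0 mM replicate 1.

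Whether the response of HU-HSA-3 differed from that of HU-HSA-2 was tested with all 12 libraries, as the interaction of cell line and glucose. This test called 579 genes, 4.73% of 12233, with 2.43% more positive and 2.31% more negative in HU-HSA-3. All 7 stress-response genes were among them and were more positive in HU-HSA-3. The differences in log2 fold change were 4.85 for CHAC1, 2.99 for SLC7A11, 2.90 for SESN2, 2.45 for DDIT3, 1.59 for ASNS, 1.34 for ATF4 and 1.0 for MTHFD2 (adjusted p between 7.88e-12 and 4.36e-06, edgeR's quasi-likelihood test, n = 3 per group).

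In HU-HSA-2 itself at 48 h, the mean level without glucose was below that with glucose for 5 of these 7 genes. The study reports by RT-qPCR, a different measure, that this line also raised stress-response genes, with a peak early after glucose removal. All libraries used here were taken at 48 h, so a difference in timing between the lines was not tested. ASNS in HU-HSA-2 had a mean of 125 ± 6.89 CPM without glucose and 200 ± 2.60 CPM with it (SD, n = 3), so both its rise in HU-HSA-3 and its lower level in HU-HSA-2 enter the difference of 1.59. CHAC1 in HU-HSA-2 was at 23.1, 26.6 and 20.6 CPM without glucose and 30.1, 33.9 and 31.3 CPM with it. In that line the starved libraries were thus below the controls, and its control level was above that of HU-HSA-3. ATF4 in HU-HSA-2 was at 549, 568 and 541 CPM without glucose and 629, 653 and 647 CPM with it. These starved libraries too lay below their controls. The means without and with glucose in HU-HSA-2 were 5.03 and 5.95 CPM for SESN2, and 110 and 117 CPM for MTHFD2, and in both genes the groups overlapped. In DDIT3 the starved libraries of HU-HSA-2 were the higher ones, at 30.8, 32.1 and 30.6 CPM without glucose and 22.1, 23.6 and 22.6 CPM with it. SLC7A11 was also higher there without glucose, at 18.5 to 21.6 CPM, above the controls with a mean of 16.5 ± 1.38 CPM (SD, n = 3).

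PYCR1 also differed, by 0.69 (adjusted p = 0.000627, edgeR's quasi-likelihood test, n = 3 per group). ALDH18A1 differed by -0.20, with a 95% interval of -0.36 to -0.04 and an adjusted p of 0.146 in the same test. ENSCAFG00000008980 differed by 4.15 (adjusted p = 1.29e-14), from 105 ± 4.07 CPM to 127 ± 2.29 CPM (SD, n = 3) without glucose in HU-HSA-2. ENSCAFG00000011405, the gene with the largest fall in HU-HSA-3, did not pass the test of the difference (-0.80, 95% interval -1.90 to 0.25, adjusted p = 0.429), and in HU-HSA-2 it was at 39.9 ± 2.71 CPM with glucose and 7.96 ± 1.85 CPM without (SD, n = 3).

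**Figure D5:**
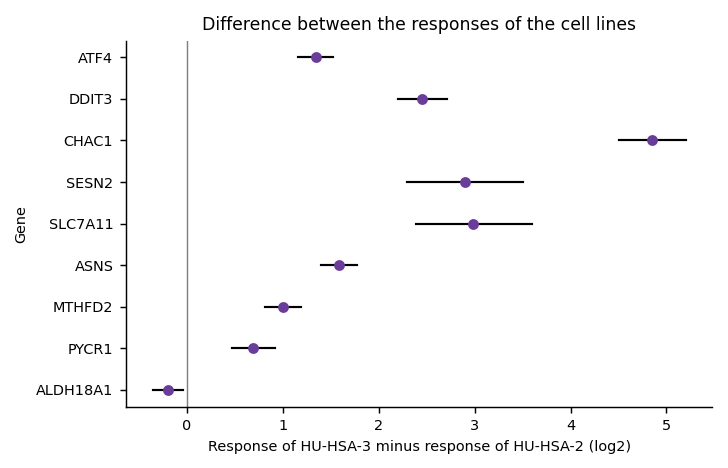
Response of HU-HSA-3 minus response of HU-HSA-2 in log2 units (horizontal axis) for the stress-response and proline synthesis genes, with points for the estimate and lines for the 95% interval from all 12 libraries. The 7 stress-response genes and PYCR1 lie to the right of 0, from 0.69 to 4.85, and ALDH18A1 lies to the left at -0.20.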

How the data were processed

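mRNA libraries were made with a directional kit from HU-HSA-3 and HU-HSA-2 cells, and paired-end reads were sequenced. Reads were aligned by the authors to CanFam3.1 (STAR) and assigned to genes by RSEM, and the submitters' processing notes also name edgeR 3.42.0. The deposited tables hold expected counts without normalization, of which 97.8% in HU-HSA-3 were exactly whole with values of 0 included and 94.9% of those above 0, and TPM values, corrected by the authors for gene length and library total. The versions of STAR and RSEM and the annotation are not given in the sources used here. RSEM divides reads shared between genes, so values of genes with near-identical copies are less certain.

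After rounding, the expected counts were tested with edgeR 4.0.16 under R 4.3.3 (filterByExpr, TMM, one mean per group, quasi-likelihood test, Benjamini-Hochberg adjustment over all genes tested, threshold 0.05). The difference between the lines was tested as an interaction over 12 libraries. Levels are given as CPM after TMM, with a prior count of 2 on the log2 scale. Relative length is the ratio of count to TPM, divided by its median. Totals per library, given in the report, set the counting precision. Among 6 pairs of HU-HSA-3 replicates, no pair agreed within sampling noise. On simulated counts with 200 changed genes, 200 were recovered for HU-HSA-3 with 6 libraries (11080 genes, 5 unchanged genes called). Without 0 mM replicate 1, 200 were recovered (11204 genes, 10), and for the difference 192 (11939 genes, 8). This was a check of the procedure only, and recovery of changes in the measured libraries was not tested.

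The members, gene lists and tests were chosen with earlier results of these data known. The rule names 17 genes that the study's primer list pairs with an identifier, and the 2 rising and 2 falling identifiers with the largest change among genes past the threshold with a mean CPM of 1 or more and groups that do not overlap. CHAC1 falls under both parts. The reference gene table, of assembly UU_Cfam_GSD_1.0, held none of the 30951 identifiers, so 3 of 16 lists had at least 80% of their members matched, and the other 13 were not described, apart from the 3 endothelial markers. Results of the other genes of the primer list are not reported here. Alternatives were DESeq2 1.42.0 and its size factors, upper-quartile normalization, other count filters, limma 3.58.1 on log2(TPM + 1) and log2(TPM + 0.1), limma-voom with quality weights, the trend of log2 CPM on length removed per library (span 0.3), 12 libraries in one fit, the replicate number as a block, and each library left out. The numbers were not taken to pair the libraries.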

Additional observations from a re-analysis of the deposited data

Results flagged for a closer look

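The response to 48 h without glucose differed between the lines for 579 of 12233 genes by the test of the difference itself. Among the genes named by symbol it differed, in log2 units of HU-HSA-3 minus HU-HSA-2, for CHAC1 (4.85), SLC7A11 (2.99), SESN2 (2.90), DDIT3 (2.45), ASNS (1.59), ATF4 (1.34), MTHFD2 (1.0) and PYCR1 (0.69), and it also differed for ENSCAFG00000008980 (4.15). Across the 12 fits that each left out 1 library the 8 differences of genes with a symbol kept their sign, with the lowest at 0.61 for PYCR1 and the highest at 4.94 for CHAC1. Each line came from 1 dog, so line and donor cannot be told apart. All libraries were taken at 48 h, and the response at earlier times was not tested.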

How the results depend on the processing

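Of 331 alternative log2 fold changes of the 17 genes named by symbol and 3 by identifier in HU-HSA-3, 305 stayed on the same side of the threshold with the same sign, and so did all 198 alternative differences between the lines for the 7 stress-response genes, PYCR1 and ALDH18A1. B2M passed the threshold under 7 alternatives, and ENSCAFG00000010896 lost it under 5. Among genes that never passed it, RPL32 turned negative on TPM (-0.17 and -0.22 with pseudocounts of 1 and 0.1) and when a library was left out (-0.10 to 0.25). ACTB turned negative with limma-voom and quality weights (-0.0038), on TPM (-0.06 for both) and without 0 mM replicate 1 (-0.01 to 0.07 over libraries). VWF reached -0.23 with limma-voom and quality weights and -0.26 to 0.57 over libraries, and ALDH18A1 -0.03 on TPM with both pseudocounts.

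The 626 genes changed in HU-HSA-3 became 1922 with limma-voom and quality weights together, 384 and 366 on TPM, 1039 with the length trend removed and 1153 with 12 libraries in one fit, and 231 to 2027 when 1 library was left out: 2027 without 0 mM replicate 1, 319 without replicate 2, 431 without replicate 3, and 236, 256 and 231 without control replicates 1 to 3. The 2027 genes without 0 mM replicate 1 became 1192 with DESeq2, 891 on log2(TPM + 1), and 936 to 2276 when a further library was left out. The low end came from fits with a lone starved library, which was assumed to vary like the controls. The 579 differences became 1030 with limma-voom and quality weights and 370 on log2(TPM + 0.1), with 386 to 852 over left-out libraries. Over all genes tested, the slopes of 0 mM replicates 1 to 3 were 0.831, 0.718 and 0.648. The cause was not tested.

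With the replicate block, 713 genes changed, 1696 without 0 mM replicate 1 (added after seeing the data) and 502 differed between the lines. Deviations of same-numbered libraries correlated at 0.173, 0.124 and -0.0582 for replicates 1, 2 and 3. The highest correlations of these starved libraries with a control of another number were 0.0657, -0.0308 and 0.182. The same number was thus the higher for replicates 1 and 2 but not for 3, and the numbers were not taken as pairs. The block brought B2M past the threshold (adjusted p = 0.00818, edgeR's quasi-likelihood test; range over alternatives 0.00818 to 0.278). Upper-quartile scaling and DESeq2 size factors moved the median of all genes by under 0.01 log2 units.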
